A study of Mus musculus with 111 samples.

Results

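The zQ175 effect at 12 months was compared between astrocytes and microglia sorted from mouse striatum. For each gene, the difference between zQ175 and wild-type (WT) astrocytes was taken minus the difference between zQ175 and WT microglia, with the fractions paired by sample number. This difference of effects is positive where the zQ175 effect was higher in astrocytes and negative where it was higher in microglia. Its value came from 16 of the 111 samples, which are the 4 zQ175 and 4 WT samples of each of these fractions. It was tested on 12460 of 18194 genes. The 16 zQ175 and WT samples of these fractions at 6 months also entered the estimate of the spread and the choice of genes tested.

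zQ175 mice, a model of Huntington's disease, have the long CAG repeat knocked into the mouse Htt gene, and the WT mice were littermate controls. Per the labels, the striata of a litter were pooled by genotype after removal of the subventricular zone. No strain, sex or repeat length was given in the sources used here. Astrocytes were sorted as GLT1-positive, CD11b-negative cells and microglia as GLT1-negative, CD11b-positive cells. zQ175 samples are numbered 30 to 33 and WT samples 34 to 37, with 1 astrocyte and 1 microglia sample per number. Since a sample pools several mice, p-values here reflect variation among pools and not among animals.

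Astrocytes take up glutamate, buffer potassium and supply lipids, cholesterol among them, to neurons. Microglia are the resident macrophages of the brain. In mouse models of neurodegeneration they can enter a disease-associated state with more RNA of lipid handling and phagocytosis genes such as Apoe, Axl, Cst7 and Gpnmb.

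The sort separated the fractions in both genotypes. Values are log2 array signal. Slc1a2, the gene of GLT1, was at 13.25, 13.21, 13.32 and 13.38 in zQ175 astrocytes and 13.48, 13.47, 13.46 and 13.44 in WT astrocytes, against 10.25 or less in every microglia sample. Itgam, the gene of CD11b, was between 3.13 and 3.34 in zQ175 astrocytes and between 3.09 and 3.42 in WT astrocytes, against 8.13 to 9.29 in zQ175 microglia and 8.75 to 9.42 in WT microglia. Htt was called in neither fraction, and its difference of effects was -0.23 ± 0.31 (SE). Its signal in astrocytes was nonetheless lower in every zQ175 sample (7.89, 8.42, 8.25 and 8.40) than in every WT sample (8.61, 8.63, 9.14 and 8.60). In microglia the genotypes overlapped. Pearson correlations between arrays of 1 group ran from 0.977 to 0.993.

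Both fractions also held RNA of other cell types. Its level differed between the genotypes in microglia and, for precursor markers, in astrocytes. The mean of 13 oligodendrocyte markers was 10.66, 10.74, 10.75 and 10.75 in zQ175 microglia and 8.75, 10.38, 10.10 and 9.90 in WT microglia. All zQ175 samples were higher than all WT samples, and WT sample 34 was the lowest. Oligodendrocyte precursor markers were at 6.47, 8.28, 7.22 and 6.96 in zQ175 microglia and 5.82, 6.11, 6.17 and 6.06 in WT microglia. Endothelial and mural markers were at 7.43, 9.89, 7.95 and 7.57 in zQ175 microglia and 6.91, 7.10, 7.01 and 7.19 in WT microglia. In both lists the genotypes did not overlap and zQ175 sample 31 was the highest. That sample also stood apart in ependymal and subventricular zone markers, at 8.54 against 6.04 or less in the other microglia samples. In astrocytes, number 31 was instead the lowest in endothelial and mural markers, at 7.33 against 8.30 or more in the other samples. For these markers both values lower the astrocyte minus microglia difference within number 31. Pan-neuronal markers in microglia did not overlap either, from 6.85 to 7.81 in zQ175 and from 6.14 to 6.75 in WT samples. Medium spiny neuron genes there were apart by a narrow margin (5.755 to 5.972 and 5.641 to 5.751). Astrocyte markers in microglia overlapped, from 8.17 to 8.59 in zQ175 and from 7.76 to 9.08 in WT samples. In the astrocyte fraction itself they were lower in every zQ175 sample (12.34 to 12.43) than in every WT sample (12.48 to 12.52). In astrocytes the precursor markers did not overlap, from 8.334 to 8.63 in zQ175 and from 7.809 to 8.329 in WT samples. The oligodendrocyte markers overlapped there, from 12.08 to 12.27 in zQ175 and from 11.83 to 12.28 in WT samples. In bulk samples, more cells of a type and more RNA per cell cannot be told apart.

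**Figure D1:**
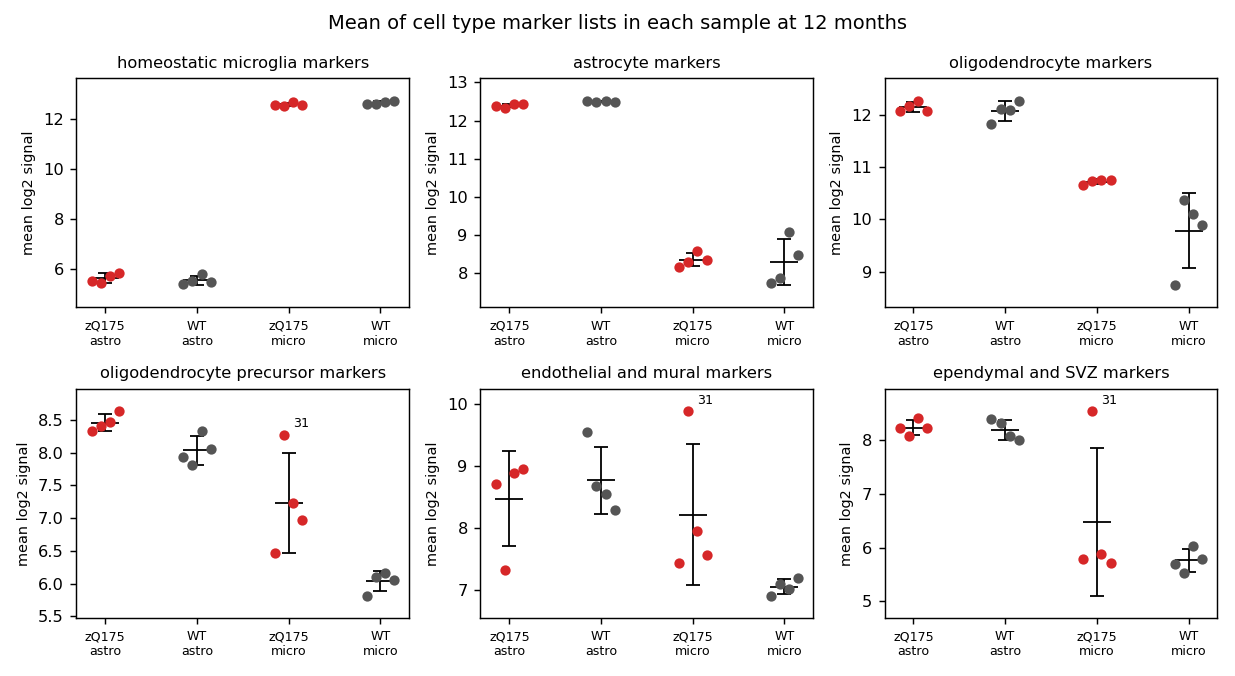
Mean log2 array signal of 6 cell type marker lists (y axes, each with its own range) in the 4 samples of each of 4 groups at 12 months (x axes, zQ175 in red and WT in grey, bars are the mean ± SD, SVZ stands for subventricular zone). In microglia the oligodendrocyte, precursor, and endothelial and mural markers of the 4 zQ175 samples lie above those of the 4 WT samples, and zQ175 sample 31, marked in the lower panels, is the highest microglia sample there.

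The zQ175 effect differed between astrocytes and microglia for 193 genes, 1.55% of those tested (limma on the within-number differences, called at a Benjamini-Hochberg adjusted p below 0.05). The count was 487 with the sample number as a random block and 25 with the 12-month samples only, and the data do not show that the numbers pair the fractions. The effect was higher in astrocytes for 65 genes (0.522%) and higher in microglia for 128 genes (1.03%), and 141 of the 193 differences were beyond 2-fold. Within a fraction, limma called 662 genes in astrocytes (5.31%) and 414 in microglia (3.32%), of which 491 (3.94%) and 371 (2.98%) were higher in zQ175. Of the 193 genes, 59 were called in astrocytes alone (47 higher and 12 lower in zQ175) and 92 in microglia alone (87 higher and 5 lower). Another 9 changed in 1 direction by unequal amounts, 2 (0.0161%) changed in opposite directions, and for 31 neither single effect was called.

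A further 84 genes (0.674%) were called in both fractions in 1 direction with no called difference, 80 higher and 4 lower in zQ175. Genes called in 1 fraction with no called difference numbered 508 for astrocytes and 227 for microglia, and these are not shown to be specific to either. Nearest to the threshold for the difference were Nectin3, Crybg3 and Shroom2 inside it (adjusted p = 0.0498 for each) and Fibin, Efnb3 and Kcna6 outside it (adjusted p = 0.0506, 0.0507 and 0.0507). Single samples moved these counts. The 193 became 111, 34, 78 and 97 without zQ175 samples 30, 31, 32 and 33, and 62 without WT sample 34. The 84 became 34, 38 and 48 without zQ175 samples 31, 32 and 33, and 45 without WT sample 34. In all 8 fits that left out 1 sample number, 29 of the 193 genes (15 with the higher effect in astrocytes and 14 in microglia) and 25 of the 84 kept their call.

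**Figure D2:**
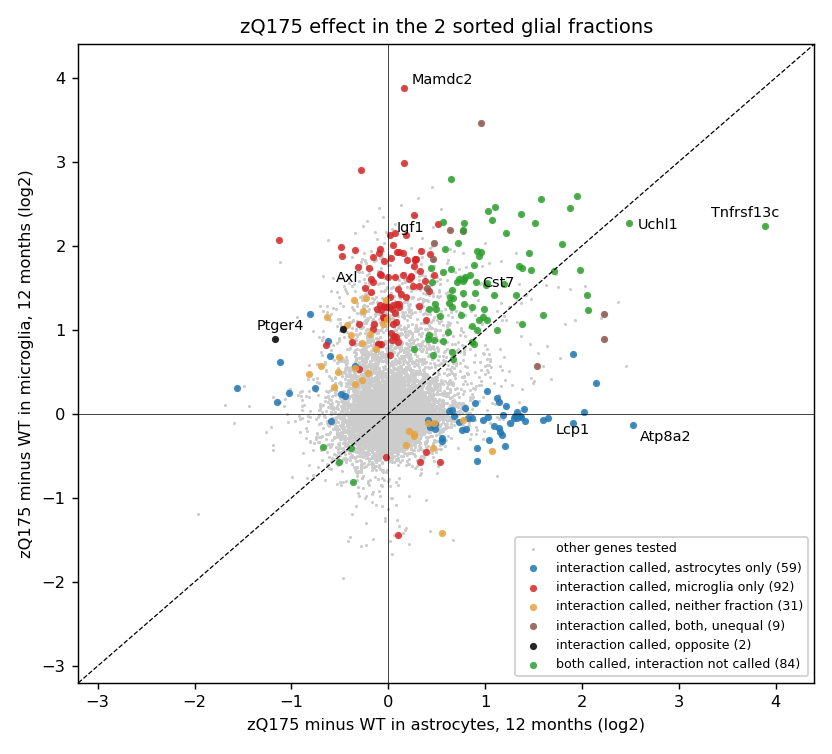
zQ175 minus WT at 12 months in astrocytes (x axis) and in microglia (y axis), in log2 units, for the 12460 genes tested, with called genes coloured by class and their number in the legend. The dashed line marks equal effects. Of the 92 microglia genes 87 lie above 0 on the y axis, and of the 59 astrocyte genes 47 lie above 0 on the x axis.

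Igf1, the gene of insulin-like growth factor 1, a trophic factor that microglia secrete, rose in zQ175 microglia alone. It was at 5.03, 5.06, 4.90 and 5.06 in zQ175 astrocytes and 4.60, 5.12, 5.13 and 5.14 in WT astrocytes, below the 5.47 under which a gene was counted as dim there. In microglia it was at 10.08, 9.80, 10.41 and 10.16 in zQ175 samples against 8.07, 7.72, 8.15 and 8.02 in WT samples. The genotypes overlapped in astrocytes and did not overlap in microglia. Igf1 and the genes named below were chosen from these same samples, so a separation of the genotypes is no added support. The effects were 0.01 in astrocytes and 2.12 in microglia, and their difference was -2.11 ± 0.28 (SE, 4 sample numbers per genotype, limma adjusted p = 0.00367). It was called in all 17 alternatives in which the gene was tested, among them the fit with the oligodendrocyte marker mean as a covariate (-2.43, adjusted p = 0.0466).

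Cd72, which encodes an inhibitory receptor of B cells and myeloid cells, had the same pattern. It was at 10.26, 10.47, 10.86 and 10.59 in zQ175 microglia against 8.82, 8.54, 9.21 and 9.36 in WT microglia. In astrocytes it was dim, at 5.60 or less in zQ175 and 5.65 or less in WT samples. The difference of effects was -1.72 ± 0.26 (adjusted p = 0.00963). With the oligodendrocyte covariate it was -1.70 and not called (adjusted p = 0.264).

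Apoe, the main apolipoprotein gene of the brain, is made at a high level by astrocytes, and its signal there overlapped between the genotypes. It was at 13.20, 13.06, 13.28 and 12.996 in zQ175 astrocytes and 13.34, 13.33, 13.15 and 13.34 in WT astrocytes. In microglia it was at 12.94, 12.90, 12.80 and 12.91 in zQ175 samples against 11.80, 11.85, 12.13 and 11.72 in WT samples, with no overlap. The effects were -0.16 in astrocytes and 1.01 in microglia, a difference of -1.17 ± 0.18 (adjusted p = 0.0117). With the oligodendrocyte covariate the difference was -0.87 (adjusted p = 0.329).

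Axl, a receptor tyrosine kinase gene for the uptake of dying cells, was at 11.05, 10.87, 11.41 and 11.19 in zQ175 microglia against 9.72, 9.19, 9.85 and 9.78 in WT microglia. In astrocytes it ran from 10.57 to 10.86 in zQ175 and from 10.86 to 11.01 in WT samples and was not called. The difference of effects was -1.74 ± 0.29 (adjusted p = 0.0135), and averaging its probe sets gave -0.91. Fabp5, a fatty acid binding protein gene, had the smallest p among the genes with the higher effect in microglia. It was at 11.71, 11.87, 11.78 and 11.69 in zQ175 microglia against 10.48, 10.81, 10.86 and 10.64 in WT microglia, and its difference was -1.22 ± 0.15 (adjusted p = 0.0025).

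Other genes of lipid handling were named after their values were seen. Ch25h, the gene of the enzyme that makes 25-hydroxycholesterol, was at 10.33, 10.07, 10.78 and 10.20 in zQ175 microglia against 8.23, 8.05, 8.14 and 8.69 in WT microglia, with a difference of effects of -3.19 ± 0.55. Fabp3, of the same family as Fabp5, had -2.01 ± 0.33, or -0.90 when its probe sets were averaged. Apoc1, an apolipoprotein gene, had -2.36 ± 0.44, and Gpnmb, a lysosomal glycoprotein gene, -3.18 ± 0.59. The calls of Ch25h and Apoc1 were lost without zQ175 sample 31 (-2.98 and -2.33, adjusted p = 0.0522 and 0.0607), those of Apoc1 and Gpnmb without zQ175 sample 32 (-2.20 and -2.83, adjusted p = 0.0588 and 0.0539), and that of Gpnmb without WT sample 34 (-3.03, adjusted p = 0.0633).

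**Figure D3:**
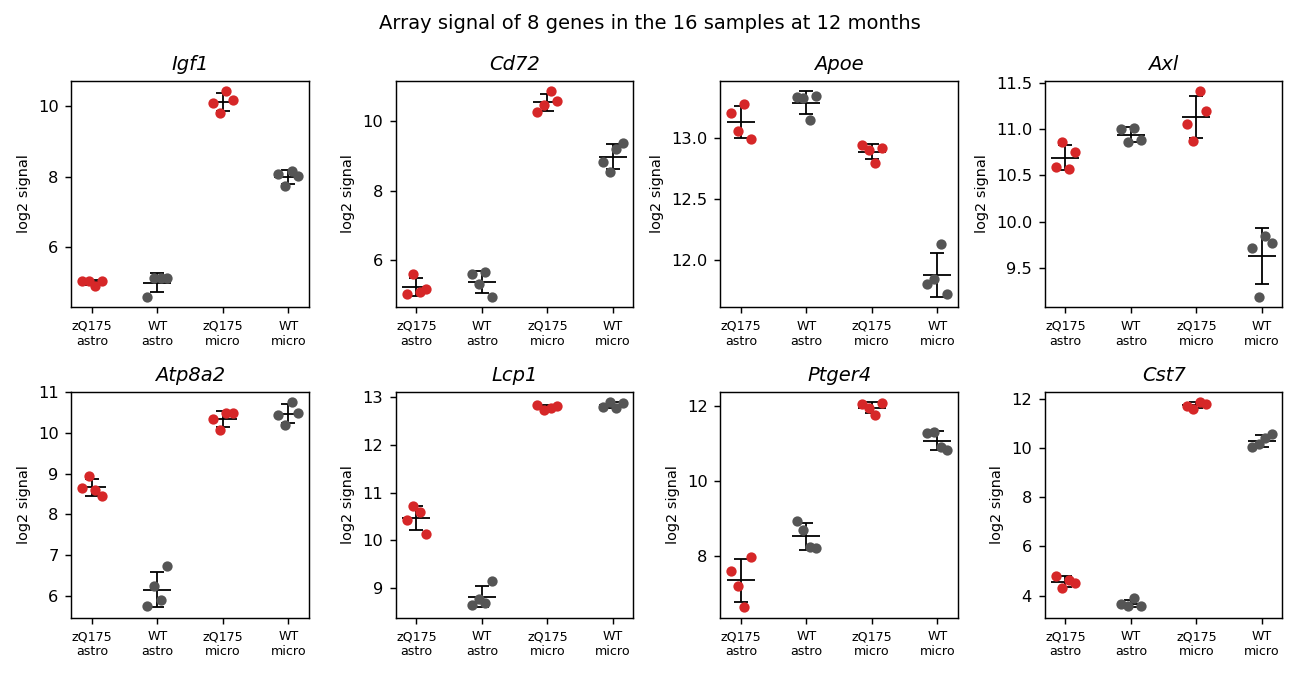
Log2 array signal (y axes, each with its own range) of 8 genes in the 4 samples of each group at 12 months (x axes, zQ175 in red and WT in grey, bars are the mean ± SD). Igf1, Cd72, Apoe and Axl separate the genotypes in microglia, Atp8a2 and Lcp1 separate them in astrocytes, Ptger4 is lower in zQ175 astrocytes and higher in zQ175 microglia, and Cst7 is higher in zQ175 in both fractions. The genes were chosen from these samples, so the separation is no added support.

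The promoters of Igf1, Cd72, Axl and Ch25h are shown because these genes had a higher effect in microglia in zQ175 and in the R6/2 mice described last. They were picked with their motifs known, 3 that hold a PU.1 core and Ch25h, which holds none of the motifs searched. Each is the 250 bases before the start site, from RefSeq on GRCm38.p6, read on the strand of the gene. Capitals mark the core of sites of PU.1, a transcription factor of myeloid cells (GAGGAA on either strand), and in Igf1 also an AP-1 match (TGANTCA on either strand). The windows are chr10:87860861-87861110 on the plus strand for Igf1, chr4:43454627-43454876 on the minus strand for Cd72, chr7:25788734-25788983 on the minus strand for Axl and chr19:34475149-34475398 on the minus strand for Ch25h.
Igf1: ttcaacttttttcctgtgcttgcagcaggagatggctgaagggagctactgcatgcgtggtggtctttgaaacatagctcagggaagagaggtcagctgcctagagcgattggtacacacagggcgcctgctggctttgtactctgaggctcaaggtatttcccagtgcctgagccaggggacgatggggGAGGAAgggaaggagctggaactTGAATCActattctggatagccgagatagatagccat
Cd72: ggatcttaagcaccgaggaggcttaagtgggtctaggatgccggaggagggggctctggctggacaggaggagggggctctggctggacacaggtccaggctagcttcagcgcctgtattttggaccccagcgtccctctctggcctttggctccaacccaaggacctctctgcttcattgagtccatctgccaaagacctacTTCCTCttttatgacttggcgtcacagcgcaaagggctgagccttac
Axl: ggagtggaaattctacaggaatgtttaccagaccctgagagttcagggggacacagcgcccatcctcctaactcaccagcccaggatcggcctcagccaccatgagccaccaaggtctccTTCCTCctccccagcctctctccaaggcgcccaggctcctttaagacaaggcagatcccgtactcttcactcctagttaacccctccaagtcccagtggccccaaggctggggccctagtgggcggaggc
Ch25h: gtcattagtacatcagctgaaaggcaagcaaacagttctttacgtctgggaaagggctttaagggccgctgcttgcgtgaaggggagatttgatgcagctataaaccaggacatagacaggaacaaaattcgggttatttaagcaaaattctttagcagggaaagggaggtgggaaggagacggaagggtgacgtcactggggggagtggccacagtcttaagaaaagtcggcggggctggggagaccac
Among the 31 genes with a higher effect in microglia in both models, 25 had a promoter in the table, with 38 windows in all. GAGGAA was in 12 of the 38 windows (31.6%), from 10 of the 25 genes, and in 23.3% of all 32851 windows of this length. For the 97 genes with a higher effect in microglia in zQ175 that were not called so in R6/2 it was in 22 of 113 windows (19.5%). TGANTCA was in 4 (10.5%) and in 6.75% of all, and the E-box CACGTG was in 6 (15.8%) and in 6.02% of all. The M-box TCACATG was in 0 of the 38 and in 3.5% of all. No motif contains another, several windows can belong to 1 gene, and the shares are descriptions of the letters alone.

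The disease-associated microglia list separated the genotypes in microglia and not in astrocytes. The mean of its 16 tested genes was 11.99 to 12.32 in zQ175 microglia and 11.34 to 11.49 in WT microglia, against 8.07 to 8.36 in zQ175 astrocytes and 7.97 to 8.44 in WT astrocytes. In microglia 8 of the 16 were called higher and 0 lower (2.98% and 0.345% of all genes), with a median effect of 0.82 beside -0.01 over all genes. In astrocytes 1 of the 16 was called higher (3.94% of all genes were), with a median of -0.02 beside 0.02. With the oligodendrocyte covariate 0 of the 16 were called in microglia, with a median of 0.62, and 0 differences were called. Without sample numbers 31 and 34 together 6 were called in microglia, with a median of 0.81, and 0 differences. Markers of other cell types were also higher in zQ175 microglia, as given above. The difference of effects was called negative for 3 of the 16 in the main test, Apoe, Axl and Gpnmb (1.03% of all genes were). For 4 more that rose in microglia it was not called: Lpl, the lipoprotein lipase gene (0.89 in microglia, difference -1.40 ± 0.67), Itgax, an integrin gene (1.26 and -1.28 ± 0.39), Clec7a, a pattern recognition receptor gene (0.82 and -0.9998 ± 0.24), and Csf1, a microglial growth factor gene (0.82 and -0.69 ± 0.18). Among the 8 that were not called in microglia, Cd68, Ctsb, Ctsd, Tyrobp, Cd9, B2m and Ccl6 had effects between -0.04 and 0.05 and Lgals3, a galectin gene, had 0.83. Homeostatic microglia markers averaged 12.50 to 12.65 in zQ175 microglia and 12.59 to 12.72 in WT microglia, and 0 of the 17 were called in either fraction, with 0 called differences.

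Most of the 87 genes that rose in microglia alone had more signal in astrocytes than in microglia. In WT samples 82 of the 87 were higher in the astrocyte fraction (50.8% of all genes were), with a median level difference of 3.45. Itgb8, an integrin gene that activates transforming growth factor beta, was at 8.46, 8.61, 8.60 and 8.42 in zQ175 microglia against 5.62, 6.88, 7.11 and 7.04 in WT microglia, beside 11.17 to 11.66 in zQ175 astrocytes and 11.26 to 11.44 in WT astrocytes. Its difference of effects was -1.83 ± 0.27 (adjusted p = 0.0084). Omg, a gene of a myelin glycoprotein, had -1.63 ± 0.27, Plekhg1 -1.81 ± 0.27 and Nckap5 -2.10 ± 0.32. Over the alternatives the differences of Itgb8, Plekhg1 and Omg shrank to as little as -1.03, -1.06 and -0.95. They were called in 17, 17 and 16 of 19 alternatives. Mamdc2 was at 8.53, 8.01, 8.87 and 8.21 in zQ175 microglia against 3.87, 3.83, 4.95 and 5.45 in WT microglia (-3.72 ± 0.56, adjusted p = 0.0084). Its mean of 4.52 in WT microglia is under the dim threshold of 5.427 for that fraction, so the size of this difference is uncertain, and the same holds for Nckap5, whose mean there was 4.19. Of lineage markers the difference was called for Mog (-1.27 ± 0.28), Cspg4 (-2.30 ± 0.41) and Olig1 (-1.59 ± 0.37).

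These genes moved beside the markers of other cells in the microglia fraction. The median microglial effect of the oligodendrocyte list was 0.93 (2 of 13 called higher), that of the precursor list 1.07 (2 of 6), that of the endothelial and mural list 1.23 (0 of 16), that of the ependymal and subventricular zone list 1.08 (0 of 7) and that of the pan-neuronal list 0.54 (2 of 12), against -0.06 for the astrocyte markers (1 of 21). Of all genes 2.98% were called higher in microglia. Without zQ175 sample 31 the medians were 0.69 for the precursor, 0.57 for the endothelial and mural, 0.13 for the ependymal and 0.34 for the pan-neuronal list, with 0 of 12 pan-neuronal and 1 of 13 oligodendrocyte markers called. With the oligodendrocyte marker mean as a covariate, the difference of effects was called for 5 genes in place of 193, 4 of them among the 193: Atp8a2, Fcho1 and Lcp1 with the higher effect in astrocytes and Igf1 with the higher effect in microglia. The fifth, Retnla, was not called without the covariate. That covariate itself differs between the genotypes in microglia, so what it takes from the genotype and what it takes from other cells cannot be told apart in this fit. With the mean of the precursor and endothelial markers in its place, an alternative chosen after seeing the data, 23 genes were called, 19 of them among the 193, Igf1, Cd72, Apoe, Axl, Fabp3 and Fabp5 among these.

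The other 5 of the 87 had more signal in WT microglia than in WT astrocytes. They were Igf1, Cd72, Fabp3, Ch25h and Ube2c, a ubiquitin-conjugating enzyme gene of mitosis, which was named after its values were seen (-1.24 ± 0.26, adjusted p = 0.0337). All 5 had zQ175 microglia samples higher than all WT microglia samples, but these same samples chose the genes, so the separation is no added support. Only 5 genes fell in microglia alone. Mgl2, a lectin gene of macrophages, also named after its values were seen, was at 7.23, 6.57, 7.16 and 6.12 in zQ175 microglia against 7.82, 8.07, 8.93 and 8.04 in WT microglia, with a difference of 1.55 ± 0.27.

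Atp8a2, which encodes a phospholipid flippase, rose in astrocytes alone and had the smallest p of all genes for the difference. It was at 8.66, 8.96, 8.61 and 8.46 in zQ175 astrocytes against 5.75, 6.23, 5.89 and 6.73 in WT astrocytes. In microglia it was at 10.35, 10.07, 10.48 and 10.51 in zQ175 and 10.45, 10.20, 10.77 and 10.51 in WT samples, which overlapped. The effects were 2.52 and -0.13, a difference of 2.65 ± 0.26 (adjusted p = 0.000496), or 1.11 when its probe sets were averaged.

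Lcp1, the gene of L-plastin, an actin-bundling protein of blood cells and microglia, followed the same course. It was at 10.44, 10.72, 10.59 and 10.13 in zQ175 astrocytes against 8.66, 8.78, 8.70 and 9.15 in WT astrocytes, beside 12.74 to 12.84 in zQ175 microglia and 12.78 to 12.89 in WT microglia. The difference was 1.70 ± 0.18 (adjusted p = 0.000688). Fcho1, an endocytosis gene, was at 7.42, 7.84, 7.23 and 7.61 in zQ175 astrocytes against 5.92, 5.71, 5.90 and 6.18 in WT astrocytes, with a difference of 1.66 ± 0.18 (adjusted p = 0.000688). Tmtc4, a gene of a protein mannosyltransferase, was at 10.64, 10.49, 10.74 and 10.47 in zQ175 astrocytes against 9.34, 9.05, 9.16 and 9.19 in WT astrocytes, with a difference of 1.35 ± 0.17 (adjusted p = 0.0031). In each of these genes every zQ175 astrocyte sample was higher than every WT astrocyte sample and the microglia samples overlapped. The same samples chose these genes, so the separation is no added support.

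Of the 47 genes that rose in astrocytes alone, 40 had more signal in WT microglia than in WT astrocytes, with a median level difference over the 47 of -1.70. Beside Atp8a2 and Lcp1, these were among others Pik3r5, a phosphoinositide 3-kinase subunit gene (1.35 ± 0.16), Marchf1, a ubiquitin ligase gene (1.59 ± 0.22), Pla2g4a, the cytosolic phospholipase A2 gene (1.37 ± 0.21), Itgb3, the integrin beta 3 gene (1.497 ± 0.25), Cbx8, a Polycomb gene (0.88 ± 0.14), and Eya4, a transcriptional coactivator gene (0.94 ± 0.15). When its probe sets were averaged, Eya4 had 0.46 and was not called (adjusted p = 0.222). Over the alternatives the difference of Cbx8 fell as low as 0.48 and that of Itgb3 as low as 0.81. Each of these 2 was called in 14 of 19 alternatives. Homeostatic microglia markers averaged 5.45 to 5.85 in zQ175 astrocytes and 5.40 to 5.81 in WT astrocytes, close to the dim threshold of 5.47 there. Their median effect was 0.13, with 11 of 17 above 0 (6746 of all 12460 genes were) and 0 of 17 called. Itgam was at 3.42 or less in all 8 samples. At such low signal a small shift could be missed, and a part of microglial RNA in these effects was not tested.

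Of the 12 genes that fell in astrocytes alone, 10 had more signal in WT astrocytes than in WT microglia. Nr4a1, an immediate early gene of a nuclear receptor, was at 7.84, 8.52, 8.20 and 8.10 in zQ175 astrocytes against 9.48, 8.73, 9.54 and 9.01 in WT astrocytes, with an effect of -1.03 there, 0.25 in microglia and a difference of -1.27 ± 0.26 (adjusted p = 0.0287). Idi1, an isomerase gene of cholesterol synthesis, was at 11.56, 11.60, 11.39 and 11.46 in zQ175 astrocytes against 11.82, 11.82, 11.96 and 11.80 in WT astrocytes. Its effects were -0.34 and 0.57 and the difference was -0.91 ± 0.19 (adjusted p = 0.0337). Vegfa, the vascular endothelial growth factor gene, named after its values were seen, had effects of -0.60 and 0.69 and a difference of -1.29 ± 0.30.

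Ptger4 and Sh3pxd2b had opposite effects. Ptger4, the gene of the prostaglandin receptor EP4, was at 7.61, 7.20, 6.62 and 7.97 in zQ175 astrocytes against 8.93, 8.70, 8.24 and 8.21 in WT astrocytes. In microglia it was at 12.05, 11.96, 11.75 and 12.08 in zQ175 samples against 11.28, 11.29, 10.90 and 10.81 in WT samples. Neither fraction showed an overlap of the genotypes, but these same samples chose the gene. The effects were -1.17 (adjusted p = 0.0351) and 0.89 (adjusted p = 0.0237), and the difference was -2.06 ± 0.33 (adjusted p = 0.0117).

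Sh3pxd2b, a gene of a podosome scaffold protein, was at 10.26, 10.11, 9.98 and 9.97 in zQ175 astrocytes against 10.83, 10.54, 10.23 and 10.61 in WT astrocytes, which overlapped. In microglia it was at 8.17, 7.97, 8.37 and 8.13 in zQ175 samples against 7.0025, 7.30, 7.32 and 6.97 in WT samples. The difference was -1.48 ± 0.30 (adjusted p = 0.0259), and it was not called without zQ175 sample 31, 32 or 33 or WT sample 34 or 37 (adjusted p = 0.0588, 0.0696, 0.0615, 0.0885 and 0.0514). The difference of Ptger4 kept its call in all 8 fits that left out 1 sample number, but its astrocyte effect was not called without zQ175 sample 31 or 32 or WT sample 34 or 35 (adjusted p = 0.0996, 0.111, 0.115 and 0.0922), nor its microglial effect without zQ175 sample 31 or 33 or WT sample 36 or 37 (adjusted p = 0.0666, 0.0685, 0.0558 and 0.0605).

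Of the 84 shared genes, 80 had more signal in WT astrocytes than in WT microglia, with a median level difference of 2.90. The microglial effect was the larger in size in 71 of the 84, against 6414 of all 12460 genes. In 31 of the 84 the whole 95% interval of the difference lay within 1 log2 unit of 0. This held for 9382 of all 12460 genes, a larger share than among the shared genes. Equal effects are not shown for the rest. Cdh6, a cadherin gene, was at 8.35, 8.74, 8.72 and 8.54 in zQ175 astrocytes against 6.62, 6.85, 7.07 and 6.96 in WT astrocytes, and at 5.50, 5.90, 5.73 and 6.00 in zQ175 microglia against 3.40, 4.08, 4.60 and 4.26 in WT microglia. Its mean signal in microglia lay below the 5.427 under which a gene was counted as dim there, so the microglial effect of 1.70 is imprecise as a fold, beside 1.71 in astrocytes (difference 0.01, 95% interval -0.59 to 0.61). Of the 84 shared genes 15 were dim in microglia and 1, Cst7, in astrocytes. The G protein subunit genes Gnb4 and Gng11 had effects of 0.91 and 1.94, and of 0.64 and 1.39, in astrocytes and microglia, and Dusp15, a phosphatase gene of oligodendrocyte differentiation, 1.03 and 2.42. Acy3, an aminoacylase gene that was dim in microglia, had 1.98 and 1.71, Tmem163, a zinc transporter gene, 1.45 and 1.92, and Enpp6, a choline phosphodiesterase gene of new oligodendrocytes, 1.51 and 2.27.

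Uchl1 and Tnfrsf13c were named after their values were seen. Uchl1, a deubiquitinase gene best known from neurons, was at 11.26, 11.44, 11.34 and 11.05 in zQ175 astrocytes against 8.44, 8.84, 8.73 and 9.16 in WT astrocytes, and at 8.12, 9.66, 8.25 and 8.05 in zQ175 microglia against 6.22, 5.62, 6.69 and 6.48 in WT microglia. The difference of its effects was 0.22 (95% interval -0.62 to 1.05). Tnfrsf13c, the gene of the BAFF receptor of B cells, was at 9.96, 10.44, 10.25 and 10.23 in zQ175 astrocytes against 5.95, 5.92, 6.48 and 6.96 in WT astrocytes, and at 7.83, 8.31, 7.98 and 7.05 in zQ175 microglia against 5.12, 6.18, 5.2032 and 5.74 in WT microglia. Its effects of 3.89 and 2.23 differed by 1.66 (95% interval 0.56 to 2.76, adjusted p = 0.108). In both genes and both fractions the genotypes did not overlap, but these same samples chose the genes.

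In the GLT1-negative, CD11b-negative samples of 12 months, 16 of the 80 shared genes that rose were called higher (20%, background 3.88%). This share is not particular to the shared genes. Of the 47 genes that rose in astrocytes alone 10 were called higher there (21.3%), and of the 87 that rose in microglia alone 4 (4.6%).

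Cst7, the gene of cystatin F, a protease inhibitor of disease-associated microglia, was the 1 shared gene among those that rose whose signal was higher in WT microglia. It was at 11.68, 11.59, 11.86 and 11.80 in zQ175 microglia against 10.03, 10.17, 10.38 and 10.58 in WT microglia, an effect of 1.44. In astrocytes it was dim, at 4.81, 4.30, 4.64 and 4.51 in zQ175 against 3.65, 3.59, 3.90 and 3.56 in WT samples, an effect of 0.89. The 4 shared genes that fell were P4ha1, a collagen prolyl hydroxylase gene (-0.68 in astrocytes and -0.40 in microglia), Eva1a, an autophagy gene (-0.36 and -0.81), Mfsd11 (-0.39 and -0.40) and Ccdc117 (-0.51 and -0.58). With the oligodendrocyte covariate 0 genes were shared, and the microglial effects of Cdh6, Uchl1 and Cst7 were 1.02, 2.01 and 1.08 (adjusted p = 0.379, 0.396 and 0.282), while their astrocyte effects of 1.64, 2.42 and 0.88 were called.

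Unequal changes in 1 direction included S100b, a calcium-binding protein gene on the astrocyte list that oligodendrocytes also express. It was at 11.91, 11.88, 11.95 and 11.84 in zQ175 astrocytes against 11.18, 11.26, 11.32 and 11.28 in WT astrocytes, and at 8.63, 9.24, 8.83 and 8.70 in zQ175 microglia against 5.66, 6.71, 6.99 and 7.30 in WT microglia. The effects of 0.64 and 2.18 differed by -1.55 ± 0.33 (adjusted p = 0.035). Thsd7a, Cldn14 and Abhd1 were named after their values were seen. Thsd7a, a thrombospondin domain gene, had 0.96 and 3.46, while Cldn14, a claudin gene, had 2.22 and 0.89 and Abhd1, a hydrolase gene, 2.22 and 1.18, with the larger effect in astrocytes.

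Among the functional lists, few differences were called. In cholesterol synthesis, 2 of 18 genes had a called negative difference (1.03% of all genes did), Idi1 and Sc5d, a desaturase gene (-0.70 ± 0.15), and 17 lay below 0, with a median of -0.40 beside 0.03 over all genes. Averaged over its probe sets, Sc5d had -0.33 and was not called (adjusted p = 0.235). Of 24 lipid transport genes 2 were called, Apoe and Fabp5, of 17 clock genes 1, Bhlhe40 (-1.31 ± 0.30), and of 18 immediate early genes 1, Nr4a1, all of them negative. Interferon-stimulated genes were called higher in astrocytes for 4 of 20 and in microglia for 2 of 20, beside 3.94% and 2.98% of all genes, with medians of 0.43 and 0.35, and 0 differences were called. The microglial calls fell to 0 without zQ175 sample 31 and to 1 without WT sample 34. No difference was called for the 13 glutamate and potassium genes, 17 reactive astrocyte genes, 8 complement genes, 19 oxidative phosphorylation genes and 17 glycolysis genes tested.

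Several of these calls rested on single samples. Without zQ175 sample 31 the differences of Cspg4, Mgl2 and Thsd7a were -2.10, 1.46 and -2.43 and were not called (adjusted p = 0.058, 0.057 and 0.058). Those of Mog, Olig1, Idi1, Sc5d, Nr4a1, Vegfa, Bhlhe40, Ube2c, S100b, Abhd1 and Cldn14 were called neither without zQ175 sample 31 nor without WT sample 34, and some of them were lost without other samples too. Sc5d was called in 5 of its 19 alternatives, and in none of the 8 fits that left out 1 sample number.

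At 6 months, in other pools of 4 zQ175 and 4 WT samples per fraction, limma called the difference for 3 genes (0.0241%). These were Atp8a2 (1.81 ± 0.26, adjusted p = 0.0271), Fcho1 (1.41 ± 0.18, adjusted p = 0.0154) and Tmtc4 (1.18 ± 0.17, adjusted p = 0.0295), which rose in astrocytes alone at 12 months. Of the 193 genes, 165 (85.5%) had the sign of 12 months at 6 months, against 62.6% of all genes. The signs at the 2 ages come from different samples, but the ages share 1 estimate of the spread. Igf1 had -0.79 and Apoe -0.28 at 6 months, and neither was called (adjusted p = 0.999 for both). A change of the difference between the ages was called for 0 genes by limma, with 647 genes at an unadjusted p below 0.05.

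R6/2 mice at 12 weeks gave the same comparison in mice that share no sample with these, with 6 R6/2 and 5 WT samples per fraction. The 3 sex-linked genes tested had median effects of 2.05 in R6/2 astrocytes and 1.31 in R6/2 microglia, with 0 called. In zQ175 these medians were -0.09 and 0.13. Whether the R6/2 and WT samples differed in sex was not tested. These mice carry a transgene of the first exon of human huntingtin. The difference of effects was called there for 1923 genes (15.4%), and 49 of the 193 genes were called with the same sign, which is 25.4% of the zQ175 list and 2.55% of the R6/2 list. With the opposite sign 2 were called. Of the 128 genes with the higher effect in microglia, 31 were called in the same direction (24.2%, background 5.58%) and 0 in the other, and of the 65 with the higher effect in astrocytes 18 (27.7%, background 9.86%) and 2. R6/2 microglia called 4 of the 5 genes with more signal in WT microglia as higher and 12 of the other 82 (14.6%), against 2.22% of all genes.

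Igf1 had a difference of -1.98 ± 0.28 in R6/2 mice (adjusted p = 0.000108), close in value to its -2.11 in zQ175 mice. Apoe had -1.58 against -1.17 in zQ175, Axl -3.06 against -1.74, Cd72 -1.82 against -1.72 and Fabp5 -1.87 against -1.22, each called in R6/2. Ptger4 had -2.74, with effects of -1.62 in R6/2 astrocytes and 1.12 in R6/2 microglia, both called. Atp8a2 had 2.61 ± 0.26 in R6/2 (adjusted p = 2.72e-06), Tmtc4 1.32 and Lcp1 0.85, each called, while Fcho1 had 0.16 and was not called (adjusted p = 0.7). Mamdc2 and Itgb8 had -0.79 and -0.27 in R6/2 and were not called (adjusted p = 0.336 and 0.81). In cholesterol synthesis 14 of the 18 genes were called lower in the R6/2 difference (5.58% of all genes were). Idi1 had -1.46 and Sc5d -0.96. In R6/2 astrocytes 18 were called lower (13.4% of all genes were). Cst7, shared in zQ175, differed in R6/2 by -2.71, with effects of 0.06 in astrocytes and 2.77 in microglia.

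**Figure D4:**
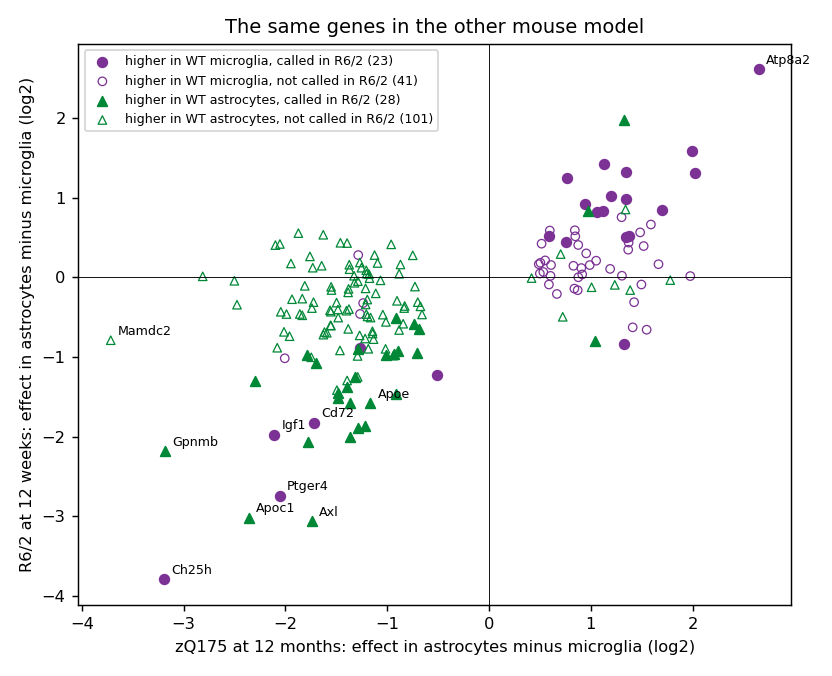
The difference of effects (astrocytes minus microglia, log2) for the 193 genes called in zQ175 at 12 months, in zQ175 mice (x axis) and in R6/2 mice at 12 weeks (y axis). Filled symbols are called in R6/2, 23 of the 64 genes with more signal in WT microglia (circles) and 28 of the 129 with more signal in WT astrocytes (triangles).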

How the data were processed

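The deposited values are log2 array signals of 45101 probe sets on 111 arrays. Per the submitters' processing notes the authors worked with affy, RMA and limma. RMA corrects background, equalizes array quantiles and summarizes probes. The tool versions and the set of arrays processed jointly are not stated there. The values ran from 1.5 to 14.26, no 2 arrays were identical, and the number of arrays limits the precision.

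Only probe sets with 1 gene symbol were used (34958; 932 had several and 9211 none), and each gene was represented by its brightest set (by mean across the arrays), which left 18194 genes. Genes were tested if their mean over the 32 arrays of both fractions at 6 and 12 months was at or above percentile 40 of the probe sets. The same percentile within a fraction marked a gene as dim there.

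The main test used limma 3.58.1 in R 4.3.3 (two-sided moderated tests by lmFit with eBayes, Benjamini-Hochberg over all genes tested) on astrocyte minus microglia differences within a sample number, with 4 group means (genotype by age). Effects within a fraction came from the same model on each fraction. The main test was also run on simulated data, with independent noise per gene and a part shared within a sample number. Those data held no sample with more RNA of other cell types, so they do not bear on such samples. Alternatives were no block, a random block, 12-month samples only, other filters, the mean of the probe sets, other scalings, marker covariates and leaving out each sample number.

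Named genes are the 10 of each sign with the smallest p for the difference, all opposite genes, the 8 higher and 8 lower shared genes with the smallest larger p, up to 2 called genes per list, and Htt, Slc1a2 and Itgam. Unannotated genes gave way to the next. Genes named outside this rule are stated as such, or complete the account of a list, a threshold or an alternative. The members, gene lists and tests were chosen with earlier results of these data known.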

Additional observations from a re-analysis of the deposited data

Results flagged for a closer look

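The zQ175 effect differed between astrocytes and microglia by a test of the difference itself for 193 genes. Among the named genes the difference, astrocytes minus microglia on the log2 scale, was positive for Atp8a2 (2.65), Lcp1 (1.70), Fcho1 (1.66), Marchf1 (1.59), Itgb3 (1.497), Pla2g4a (1.37), Pik3r5 (1.35), Tmtc4 (1.35), Eya4 (0.94) and Cbx8 (0.88). It was negative for Mamdc2 (-3.72), Cspg4 (-2.30), Igf1 (-2.11), Nckap5 (-2.10), Ptger4 (-2.06), Itgb8 (-1.83), Plekhg1 (-1.81), Axl (-1.74), Cd72 (-1.72), Omg (-1.63), Olig1 (-1.59), S100b (-1.55), Sh3pxd2b (-1.48), Bhlhe40 (-1.31), Mog (-1.27), Nr4a1 (-1.27), Fabp5 (-1.22), Apoe (-1.17), Idi1 (-0.91) and Sc5d (-0.70).

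Dixon's test scales the gap of 1 sample by the range of its group, so a flagged gap can be small in log2 units. In 21 of 232 groups of 4 samples, 1 sample stood apart by this test, where chance gives about 1 in 20. In zQ175 astrocytes these were Igf1 (lowest, 4.90), Nckap5 (lowest, 9.64), Sc5d (highest, 11.03), Bhlhe40 (lowest, 11.23) and the endothelial and mural list (lowest, 7.33). In WT astrocytes they were Igf1 (lowest, 4.60), Apoe (lowest, 13.15), Gnb4 (lowest, 9.93), Omg (highest, 12.79), Eva1a (highest, 11.35), Idi1 (highest, 11.96), Htt (highest, 9.14), the cholesterol list (highest, 11.35) and the medium spiny neuron list (highest, 7.24). In zQ175 microglia they were Sc5d (lowest, 9.03) and the cholesterol (highest, 9.47), ependymal and subventricular zone (highest, 8.54), oligodendrocyte (lowest, 10.66) and pan-neuronal (highest, 7.81) lists. In WT microglia they were Pla2g4a (highest, 10.31) and Itgb8 (lowest, 5.62).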

How the results depend on the processing

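No call of a named gene reversed its direction under any alternative. With no replicate block 256 differences were called, 163 of them among the 193, and with the replicate block as a random effect 487, 184 of them among the 193. The sample numbers are not shown to pair the fractions, since the correlations of same-numbered deviations ran from -0.23 to 0.24 with 4 of 8 over 0.1, and 3 of 8 samples correlated best with their own number. With 12-month samples only, which leaves fewer samples for the spread, there were 25 differences and 30 shared genes. The oligodendrocyte covariate gave 5 and 0, the precursor and endothelial covariate 23 and 1, and leaving out samples 31 and 34 together 15 and 19. The last 2 were chosen after seeing the data, and the cause of these changes was not tested. Leaving out 1 sample number gave 34 to 210 differences and 34 to 99 shared genes. Filters, averaging of probe sets and scalings gave 146 to 212 differences and 64 to 87 shared genes. Over the named genes and the alternatives that left out no sample number, 383 differences kept their call and 149 lost it. In the alternatives that left out sample numbers, 314 kept it and 172 lost it. Precision is limited by 4 pools per group, and dim genes have only weak signal over background.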
